A study of Mus musculus with 9 samples.

Results

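Kdm4a, Hp1bp3, Slc25a51, Pacsin2, 2900026A02Rik and Ankrd13c are 6 of the 13770 genes with Argonaute (AGO) peaks in mouse liver, grouped because a peak in the 3' UTR of each matches miR-122-5p and is strongly reduced in miR-122 knockout liver. They were chosen from that reduction, so the level of those peaks in each genotype is given as a description and not as a test. All 78 peaks that the deposited matrix assigns to the 6 genes, of 92645 unique peaks in all, were taken. The groups were 4 miR-122 knockout (KO) mice, 1 female and 3 males, and 5 floxed littermate controls, 3 females and 2 males, all 6 weeks old. AGO was immunoprecipitated from powdered, ultraviolet-crosslinked liver, and each library came from 1 mouse. The labels do not say which promoter drove the deletion.

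MicroRNAs guide AGO to messenger RNAs by pairing of their seed, the bases 2 to 8 from the 5' end, usually with a site in the 3' UTR, and the bound transcript is then repressed. miR-122 is the dominant microRNA of hepatocytes. In CLIP, a peak marks where AGO was crosslinked. A match class of 8mer, 7m8, 7A1 or 6mer runs from the longest pairing to the shortest. The 6 transcripts encode unrelated proteins. Kdm4a is a histone lysine demethylase, and Hp1bp3 is a chromatin protein related to linker histones that binds HP1. SLC25A51 is, in human cells, the carrier of NAD+ into mitochondria. Pacsin2 is an F-BAR protein that bends membranes in endocytosis and at caveolae. Ankrd13c belongs to a family of ankyrin repeat proteins, and 2900026A02Rik is known by its RIKEN clone name.

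Libraries held 445912 to 1170130 counts, and 3 counts, the limit that a count of 0 allows, equal 2.56 to 6.73 CPM (reads per 1000000 counts of the library). The peak over the miR-122 locus held 52, 3, 39 and 16 counts in KO replicates 1 to 4, against 447, 270, 378, 396 and 324 in control replicates 1 to 5. The KO libraries held fewer hepatocyte marker reads, 12882 to 20600 CPM over 10 of 10 markers, against 24529 to 31748 CPM in controls. Reads of neuron markers, 19 of 20 present in the matrix, summed to 2058, 2257, 2679 and 8062 CPM in the KO libraries, against 83.0 to 120 CPM in controls, where Gap43, Mapt, Nefm, Stmn2 and Syn1 had no count. Glia markers (5 of 6 present) reached 642 to 1695 CPM in KO and 268 to 462 CPM in controls. Aqp4, Gfap and Mbp had no control count. Stellate markers (7 of 7) reached 877 to 1668 CPM in KO and 560 to 717 CPM in controls, and cholangiocyte markers (3 of 5) 73.1 to 112 CPM in KO and 13.2 to 36.2 CPM in controls. Kupffer cell markers (7 of 8, 286 to 551 CPM in KO and 270 to 353 CPM in controls) and endothelial markers (5 of 5, 194 to 441 CPM in KO and 381 to 448 CPM in controls) overlapped between groups. Among the hepatocyte markers, Apob and Hnf4a had a tested 3' UTR peak with a miR-122 match. Those peaks were at 51.2 and 5.40 CPM in KO, against 279 and 109 CPM in controls. In AGO-bound reads of bulk liver, fewer cells of a type, less RNA per cell and less AGO on that RNA cannot be told apart. The part of these differences in the results was not tested. KO replicate 4 had the highest neuron and the lowest hepatocyte level.

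The 6 peaks with the miR-122 match each spanned 70 bases (mm10). They lay at chr4:118138042-118138111 (Kdm4a, minus strand), chr4:138242152-138242221 (Hp1bp3, plus), chr4:45396927-45396996 (Slc25a51, minus), chr15:83377484-83377553 (Pacsin2, minus), chr5:113089915-113089984 (2900026A02Rik, minus) and chr3:158006128-158006197 (Ankrd13c, plus). Each was annotated as 3' UTR, and no other gene of the RefSeq table (GRCm38.p6) overlapped one. The match was a 7m8 in Slc25a51 and Ankrd13c and a 7A1 in the other 4 genes. It sat 4 bases from the peak centre in Kdm4a, Slc25a51 and 2900026A02Rik, 5 in Ankrd13c, 13 in Pacsin2 and 19 in Hp1bp3. From the match to the annotated end of the gene there were 1037 bases in Slc25a51, 1118 in Kdm4a, 1869 in Ankrd13c, 1901 in Pacsin2, 2480 in Hp1bp3 and 3625 in 2900026A02Rik.

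In the Kdm4a peak there were 9, 3, 5 and 3 counts in KO replicates 1 to 4, against 212, 88, 254, 215 and 111 in control replicates 1 to 5. In Hp1bp3 there were 4, 1, 4 and 1 counts in KO, against 94, 73, 189, 208 and 81 in controls. In Slc25a51 there were 6, 2, 5 and 0 counts in KO, against 180, 93, 271, 256 and 235 in controls. Every KO library held single-digit counts in these 3 genes, and the 0 in KO replicate 4 of Slc25a51 allows a level of up to 4.90 CPM. In Pacsin2 there were 2, 5, 4 and 3 counts in KO, against 76, 46, 150, 162 and 87 in controls. In 2900026A02Rik there were 15, 9, 13 and 6 counts in KO, against 445, 173, 645, 593 and 295 in controls. In Ankrd13c the level was 4.0, 0, 2.8 and 6.5 CPM in KO, against 91.6, 76.2, 60.7, 104 and 88.6 CPM in controls, and the 0 in KO replicate 2 allows up to 2.92 CPM. In none of the 6 genes did the groups overlap. That separation is what the genes were chosen for, and over all 17182 regions tested all KO libraries lay below all controls in 24.0%.

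As levels, 2900026A02Rik had the strongest peak, with 11.4 ± 2.73 CPM in KO and 497 ± 105 CPM in controls (SD, n = 4 and 5, as for all means given for KO and control). It was 3rd in control level among the 505 tested 3' UTR peaks with a 7mer or 8mer match to miR-122. Slc25a51 had 3.15 ± 2.68 CPM in KO and 247 ± 42.1 CPM in controls. Kdm4a had 5.36 ± 2.55 CPM in KO and 210 ± 56.2 CPM in controls. These came 15th and 17th in control level. Hp1bp3 followed with 2.58 ± 1.50 CPM in KO and 150 ± 28.4 CPM in controls. Pacsin2 had 3.87 ± 1.37 CPM in KO and 119 ± 15.3 CPM in controls. Ankrd13c was the lowest of the 6, with 3.33 ± 2.71 CPM in KO and 84.3 ± 16.5 CPM in controls, 82nd of the 505. Neighbours in this order overlapped in control level, except 2900026A02Rik and Slc25a51.

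**Figure D1:**
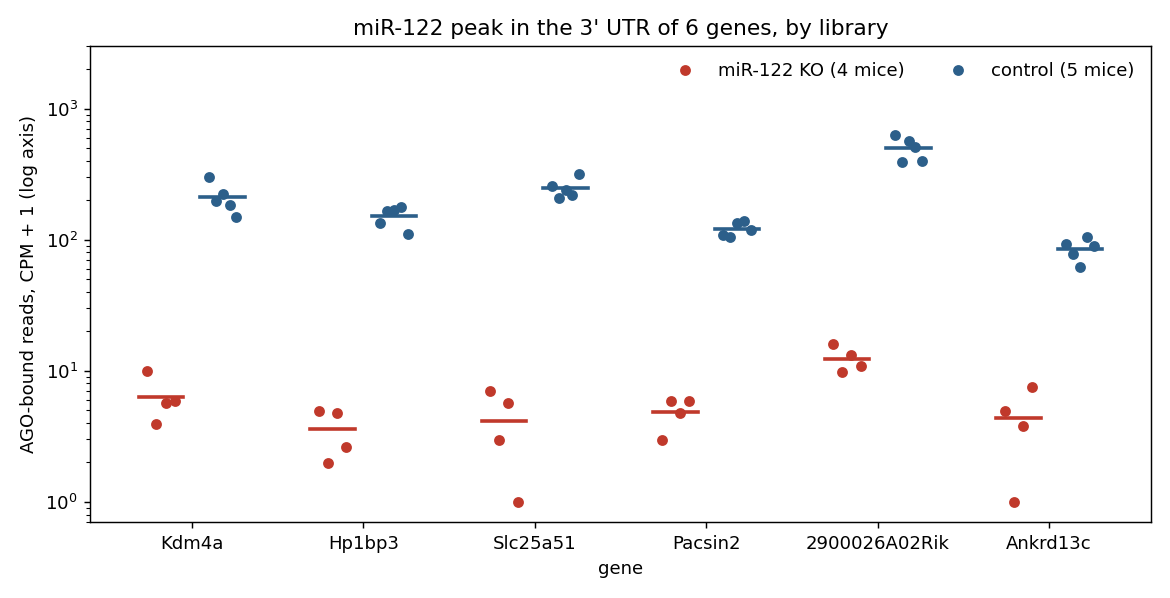
CPM + 1 on a log axis for the 3' UTR miR-122 peak of each gene, 1 point per library with KO left and control right of each gene, and lines at the mean. KO points lie below control points in each of the 6 genes; 2900026A02Rik is highest in both groups (11.4 CPM in KO, 497 CPM in control).

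The pooled KO level was 1.42% of the control level in Slc25a51 (95% exact interval 0.755 to 2.44%) and 1.76% in Hp1bp3 (0.838 to 3.25%). It was 2.26% in 2900026A02Rik (1.63 to 3.06%), 2.57% in Kdm4a (1.56 to 4.00%), 3.04% in Pacsin2 (1.65 to 5.15%) and 3.50% in Ankrd13c (1.73 to 6.34%). Intervals cover counting error only, and those of neighbours in this order overlap. The log2 fold changes of the edgeR model, KO over control, were -6.20 in Slc25a51 (SE 0.41), -5.76 in Hp1bp3 (SE 0.38), -5.40 in 2900026A02Rik (SE 0.31), -5.15 in Kdm4a (SE 0.33), -5.10 in Pacsin2 (SE 0.34) and -4.87 in Ankrd13c (SE 0.48). Of the 505 peaks, 499 belong to other genes. Their median was -3.47, with a median residual level of 8.96% and a median control level of 28.5 CPM, and 446 of them (89.4%) were called lower at an adjusted p under 0.05. Over all regions, 27.6% were called lower and 17.5% higher. These totals, 4745 lower and 3007 higher, were 4331 lower and 4219 higher under upper quartile scaling, which moved the median of all regions to 0.26 (0.03 with TMM).

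**Figure D2:**
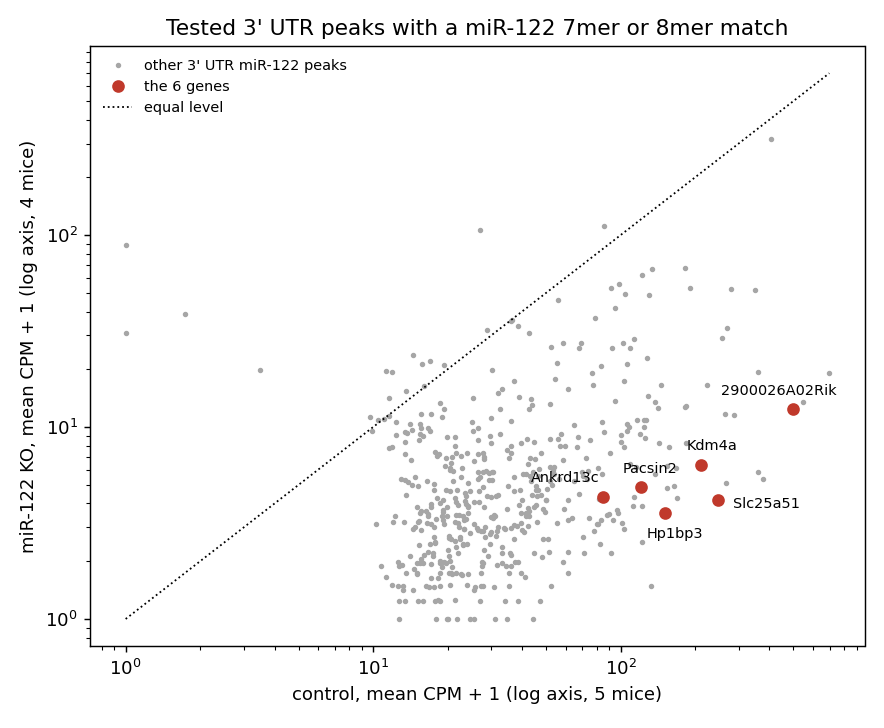
Mean CPM + 1 in KO (vertical, log axis) against mean CPM + 1 in control (horizontal, log axis) for the 505 tested 3' UTR peaks with a 7mer or 8mer miR-122 match. The 6 genes are in red; they lie to the right of most peaks and far below the dotted line of equal level, with other peaks of like level and loss around them.

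The 6 peaks are 1.19% of those 505 peaks and held 0.755% of their counts in KO and 4.89% in controls. Some features were not used directly in the choice, but they may be tied to the size of the loss, which was not tested. In all 6 peaks miR-122 was the only microRNA family with a match, as it was in 243 of the other 499 peaks (48.7%). None of the 6 matches was an 8mer, the class of 117 of the 499 (23.4%). The distance from the match to the peak centre had a median of 4.5 bases in the 6 genes and 7 bases in the others. With 6 genes these shares are descriptive.

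The region outside the 6 genes whose level was most like that of each peak, by the root mean square difference of log2(TMM CPM + 1) over the 9 libraries, also carried a miR-122 match in every case. The likeness measure follows the same KO and control difference that chose the genes. The nearest to 2900026A02Rik was a coding peak of Lrp10 at 0.15, and the nearest to Slc25a51 was a 3' UTR peak of Zfp106 at 0.32. Next were a Gm12070 pseudogene peak for Kdm4a at 0.33, a coding peak of Spag9 for Hp1bp3 at 0.38, a coding peak of Fam126b for Pacsin2 at 0.39 and a 3' UTR peak of Tbc1d20 for Ankrd13c at 0.41. With a pseudocount of 5 in place of 1, the nearest became Gm8210 for Hp1bp3, Itch for Pacsin2 and Tom1l2 for Ankrd13c. The matches in Gm12070 and Lrp10 were of the class that the file marks "-B" without defining it.

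Apart from the 3' UTR site, 5 peaks of the 6 genes matched miR-122, and 2 of them, both in coding sequence, had enough reads to be tested. In Slc25a51 the coding peak at chr4:45399642-45399770 (7A1, with 6mers of the miR-125 and miR-15 families) held 4, 4, 8 and 8 counts in KO, against 84, 46, 120, 89 and 96 in controls. That is 7.10 ± 4.31 CPM in KO and 106 ± 19.9 CPM in controls, a log2 fold change of -4.07 (SE 0.41). In Ankrd13c the coding peak at chr3:157960964-157961033 (7m8, with a miR-27 6mer) held 1, 2, 1 and 0 counts in KO, against 28, 32, 57, 69 and 31 in controls. Its level was 0.969 ± 0.796 CPM in KO and 52.4 ± 13.3 CPM in controls, with a log2 fold change of -5.49 (SE 0.48). Neither gene's groups overlapped in its coding peak. Over all 17182 regions tested, all KO libraries lay below all controls in 24.0%. The level needed for a test was reached by 5 control libraries in both peaks, by 1 KO library in Slc25a51 and by 0 in Ankrd13c. Both peaks were thus tested only because controls were high, and nothing is read from their direction. In controls the 3' UTR peak held 2.35 ± 0.334 times the counts of the coding peak in Slc25a51 (2.02 to 2.88, n = 5), and 1.70 ± 0.552 times in Ankrd13c (1.06 to 2.32, n = 5). These 2 genes each had a pair of tested miR-122 peaks, both at a lower level in KO, in the contrast that chose the genes.

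The other 3 miR-122 peaks were too low to test. An intronic peak of 2900026A02Rik starting at 113111601 had no count in any KO library and 0, 3, 4, 6 and 10 counts in controls. A repeat-annotated peak of Hp1bp3 (SINE, starting at 138226551) had 1, 0, 1 and 0 counts in KO and 3, 2, 7, 5 and 3 in controls. A coding 6mer peak of Hp1bp3 (starting at 138221636) had 5, 1, 3 and 1 counts in KO and 4, 6, 6, 14 and 4 in controls. In CPM its groups did not overlap but lay close, with a highest KO value of 4.97 CPM and a lowest control value of 5.28 CPM. The groups did not overlap in the repeat peak either, and in the intronic peak control replicate 1 was also at 0.

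The remaining 67 peaks had no miR-122 match. Of these, 60 matched another family and 7 matched none. In all, 96 matches to 26 other families lay in peaks of the 6 genes. miR-22 had 11 matches spread over all 6 genes, miR-27 had 11 in 5 genes, and miR-29 had 9 in 5 genes. Only 11 of the 67 had enough reads to be tested, and 56 did not. The untested peaks held 3 to 62 counts in KO and 2 to 50 in controls when summed over a group. Together they were at 238 CPM in KO and 228 CPM in controls, and 32 of the 56 had the higher pooled level in KO. Pooled over the 6 genes, the low peaks outside the miR-122 sites thus summed to nearly equal levels in both groups, but single genes differed in direction. Peaks with enough reads in either group were tested and are not among these 56. The near equality is therefore partly set by that filter, and nothing is read from it or from the 32.

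Of the 11 tested peaks without a miR-122 match, 3 were called lower and 2 higher. The background was 13.2% lower and 21.3% higher over 13915 such regions, with a median log2 fold change of 0.26. These calls come from the contrast that chose the genes, and a peak passed the filter on low counts if either group alone was high enough, so nothing is read from the counts. The microRNAs that match these 11 peaks with a 7mer or 8mer are shown by 1 mature sequence per family (RefSeq, GRCm38.p6). Capitals mark the seed, and no 2 of the 7 share it:
miR-29a-3p: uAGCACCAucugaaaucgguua
miR-19b-3p: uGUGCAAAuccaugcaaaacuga
miR-191-5p: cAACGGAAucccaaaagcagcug
miR-148a-3p: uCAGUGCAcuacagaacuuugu
miR-30a-5p: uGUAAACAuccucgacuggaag
miR-23a-3p: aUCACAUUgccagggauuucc
miR-26a-5p: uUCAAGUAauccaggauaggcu

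Slc25a51 had the most 3' UTR peaks of the 6 genes, 9 in all. The peak starting at 45397963, with an 8mer for the miR-29 seed AGCACCA and a 7A1 for the miR-19 seed GUGCAAA, held 16, 39, 28 and 20 counts in KO, against 40, 27, 86, 76 and 59 in controls. Its level was 28.2 ± 9.51 CPM in KO and 67.3 ± 9.77 CPM in controls, without overlap, and it was called lower at a log2 fold change of -1.50 (SE 0.31). The peak at chr4:45398431-45398638, with a 7m8 for the miR-191 seed AACGGAA and a miR-21 6mer, held 43, 75, 44 and 26 counts in KO, against 49, 26, 57, 64 and 48 in controls. It had 49.8 ± 15.5 CPM in KO and 59.3 ± 7.55 CPM in controls, with a log2 fold change of -0.35 that did not pass. Its groups overlapped through KO replicate 2. Both lie in the same 3' UTR as the miR-122 peak, whose log2 fold change was -6.20.

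In Pacsin2 the second tested peak lay in the 5' UTR, at chr15:83401877-83402013, with 6mers of miR-103 and miR-378. It held 12, 6, 6 and 0 counts in KO, against 47, 35, 79, 26 and 13 in controls. Its level was 5.84 ± 4.87 CPM in KO and 50.8 ± 28.6 CPM in controls, and it was called lower at a log2 fold change of -2.46 (SE 0.41). The filter level was reached by 5 control libraries and 1 KO library, so the peak was tested only because controls were high. KO replicate 1, a female, was the highest KO library at 11.9 CPM, and the male controls 4 and 5 were the lowest controls at 22.2 and 17.5 CPM. The groups did not overlap.

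2900026A02Rik had peaks of each kind. An intronic peak at chr5:113138109-113138178, with a 7m8 for the miR-30 seed GUAAACA, held 131, 125, 134 and 41 counts in KO, against 51, 25, 58, 66 and 28 in controls. It was at 111 ± 29.6 CPM in KO and 54.6 ± 12.3 CPM in controls, and was called higher at a log2 fold change of 1.06 (SE 0.25). KO replicate 4, at 66.9 CPM, overlapped the controls, and the other 3 KO libraries lay above them. A neighbouring intronic peak starting at 113138224 (miR-125 6mer) held 12, 11, 13 and 0 counts in KO, against 0, 8, 4, 2 and 3 in controls, and did not pass (log2 fold change 1.21). The coding peak starting at 113095717 (miR-22 6mer) held 2, 3, 0 and 0 counts in KO, against 10, 0, 17, 14 and 11 in controls. It was called lower at a log2 fold change of -3.14 (SE 0.81), and only control libraries reached the filter level. The 3' UTR peak starting at 113086312, with an 8mer for the miR-148 seed CAGUGCA, held 31, 33, 45 and 13 counts in KO, against 39, 16, 33, 26 and 20 in controls. With a log2 fold change of 0.02 it did not pass, and its groups overlapped.

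In Hp1bp3 a coding peak starting at 138239523, with a 7m8 for the miR-23 seed UCACAUU, held 14, 31, 17 and 8 counts in KO, against 3, 1, 5, 10 and 5 in controls. At 18.3 ± 8.05 CPM in KO and 5.23 ± 2.44 CPM in controls it was called higher (log2 fold change 1.45, SE 0.42). All 4 KO libraries and no control reached the filter level, so it was tested only because KO was high. Without KO replicate 1 its log2 fold change was 1.35 and the call was lost. A second coding peak starting at 138237213 (miR-103 6mer) held 1, 16, 23 and 3 counts in KO, against 10, 4, 13, 3 and 0 in controls, with a log2 fold change of 0.77 that did not pass. Without KO replicate 1 the value was 3.12 and passed. The 3' UTR peak starting at 138241753 (miR-192 6mer) held 4, 18, 29 and 6 counts in KO, against 10, 1, 16, 23 and 7 in controls, at a log2 fold change of -0.23. The one starting at 138242910, with a 7A1 for the miR-26 seed UCAAGUA, held 23, 12, 22 and 5 counts in KO, against 6, 12, 12, 11 and 9 in controls, at 0.43. Neither passed, and the groups overlapped in both. Both lie near the miR-122 peak at -5.76, in the same 3' UTR.

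Kdm4a and Ankrd13c had no tested peak without a miR-122 match. The only other 3' UTR peak of Kdm4a, starting at 118137851 with miR-29 and miR-27 matches, held 0, 2, 2 and 1 counts in KO, against 2, 6, 15, 7 and 13 in controls. The 3 other 3' UTR peaks of Ankrd13c held 25, 22 and 26 counts over the KO libraries, against 50, 21 and 46 over the controls.

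**Figure D3:**
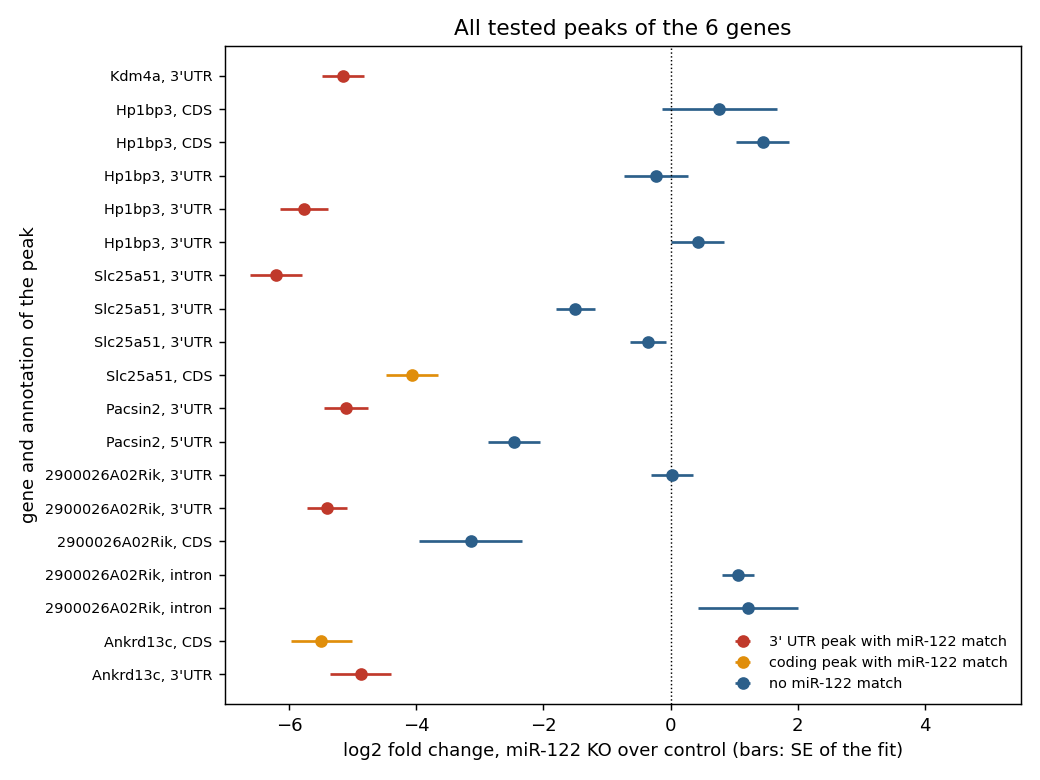
Log2 fold change, KO over control, with the SE of the fit, for the 19 tested peaks of the 6 genes in the order of genome position within each gene. Peaks with a miR-122 match lie between -6.20 and -4.07; the 11 without lie between -3.14 and 1.45.

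The miR-122 peak carried much of each gene's AGO-bound reads in controls. Its share of all reads of the gene was 24.6 ± 10.9% in KO and 86.8 ± 6.09% in controls for Kdm4a. For 2900026A02Rik it was 5.81 ± 1.38% in KO and 76.9 ± 3.90% in controls. For Hp1bp3 it was 2.29 ± 1.32% in KO and 64.0 ± 3.29% in controls. Pacsin2 had 8.19 ± 3.51% in KO and 61.9 ± 10.7% in controls. Slc25a51 had 2.82 ± 2.71% in KO and 46.2 ± 2.47% in controls, and Ankrd13c had 6.14 ± 5.03% in KO and 44.8 ± 5.63% in controls, the 2 genes with a second miR-122 peak. The groups overlapped in none of the 6 genes. The genes were chosen for the loss of this peak, which lowers its share, so the shares are a description and not a test. The share of Kdm4a in KO rests on 88 reads in all, 20 of them in the site (95% exact interval 14.5 to 32.9%). Taken over the 3' UTR peaks of the gene only, the share was 76.6% in KO and 94.7% in controls for Kdm4a, where the 3' UTR held only 5 KO reads outside the site.

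**Figure D4:**
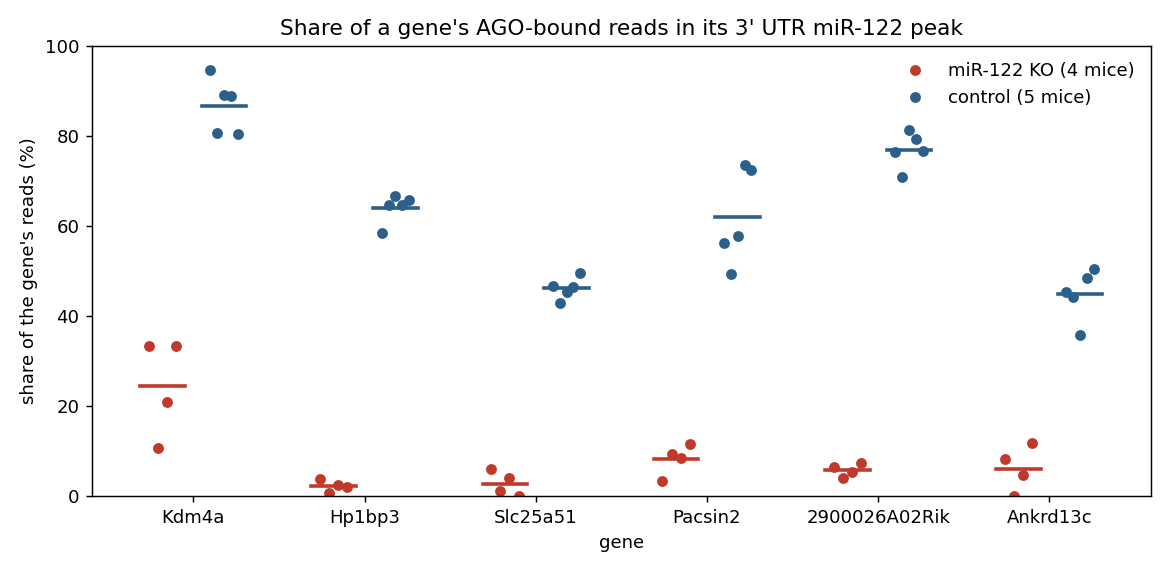
Share of a gene's AGO-bound reads, in percent, that lies in its 3' UTR miR-122 peak, 1 point per library with KO left and control right of each gene, and lines at the mean. KO shares are lowest in Hp1bp3 (2.29%) and highest in Kdm4a (24.6%); control shares run between 44.8% in Ankrd13c and 86.8% in Kdm4a.

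Summed over all its peaks, each gene was called lower in KO. These sums include the site peak whose loss chose the genes, so the calls are not independent of that choice. The log2 fold changes were -3.33 in Kdm4a, -2.26 in Slc25a51, -1.96 in Pacsin2, -1.91 in Ankrd13c, -1.69 in 2900026A02Rik and -1.09 in Hp1bp3. Among 8843 genes tested in this way, 23.3% were called lower and 21.9% higher. The sums over peaks without any miR-122 match were smaller and differed in direction. Slc25a51 had 115 ± 29.8 CPM in KO and 179 ± 7.40 CPM in controls, without overlap, and was called lower (log2 fold change -1.05, SE 0.19). Kdm4a, at 17.4 ± 5.96 CPM in KO and 30.1 ± 11.8 CPM in controls, was called lower at -1.07 (SE 0.37). Pacsin2, at 45.8 ± 9.40 CPM in KO and 75.8 ± 27.6 CPM in controls, was called lower at -0.72 (SE 0.21).

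The other 3 did not pass. Hp1bp3 had 112 ± 35.2 CPM in KO and 71.1 ± 14.7 CPM in controls (log2 fold change 0.31, SE 0.23). 2900026A02Rik had 190 ± 44.0 CPM in KO and 142 ± 32.9 CPM in controls (0.22, SE 0.18). Ankrd13c had 50.8 ± 5.76 CPM in KO and 50.4 ± 17.1 CPM in controls (-0.36, SE 0.28). The background over 8160 such sums was 13.2% lower and 18.3% higher, with a median of 0.11. This split depends on the scaling: 1077 sums were lower and 1492 higher with TMM factors of the sums themselves, 590 and 2507 with library totals only, where the median was 0.45, and 715 and 2330 with TMM factors from all peaks, where it was 0.38. Under those scalings Kdm4a (-0.70 and -0.80) and Pacsin2 (-0.38 and -0.45) no longer passed, and 2900026A02Rik passed at 0.48 with TMM factors from all peaks. The call of Kdm4a was also lost without any 1 of KO replicates 1 and 3 and control replicates 3 and 5, and that of Pacsin2 without KO replicate 1 or 3. Slc25a51 was below the median of all sums under each of these scalings.

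Conservation was not used directly in the choice of genes, and whether it is tied to the size of the loss was not tested. The mean phyloP of the miR-122 match, a score that is higher where bases are more conserved across species, was 2.26 in Ankrd13c, 2.09 in Slc25a51, 1.24 in Hp1bp3, 1.15 in Pacsin2, 0.83 in Kdm4a and 0.43 in 2900026A02Rik. The other 3' UTR miR-122 peaks had a median of 0.34, below all 6 values. Within its own gene the site did not always stand out. In Slc25a51 it scored above all 12 other 3' UTR matches (-0.56 to 1.54), and in Pacsin2 above all 4 (-1.09 to 0.29). In Ankrd13c 2 of 7 other 3' UTR matches scored higher, in 2900026A02Rik 2 of 8 and in Hp1bp3 2 of 3. In Kdm4a all 3 other 3' UTR matches (1.46 to 1.75) and all 5 elsewhere in its transcript scored higher than the miR-122 site. The strongest peak of the 6, in 2900026A02Rik, thus had the lowest score. Scores in coding sequence also reflect the conservation of codons. The coding miR-122 matches scored 2.23 in Slc25a51 and 1.48 in Ankrd13c.

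**Figure D5:**
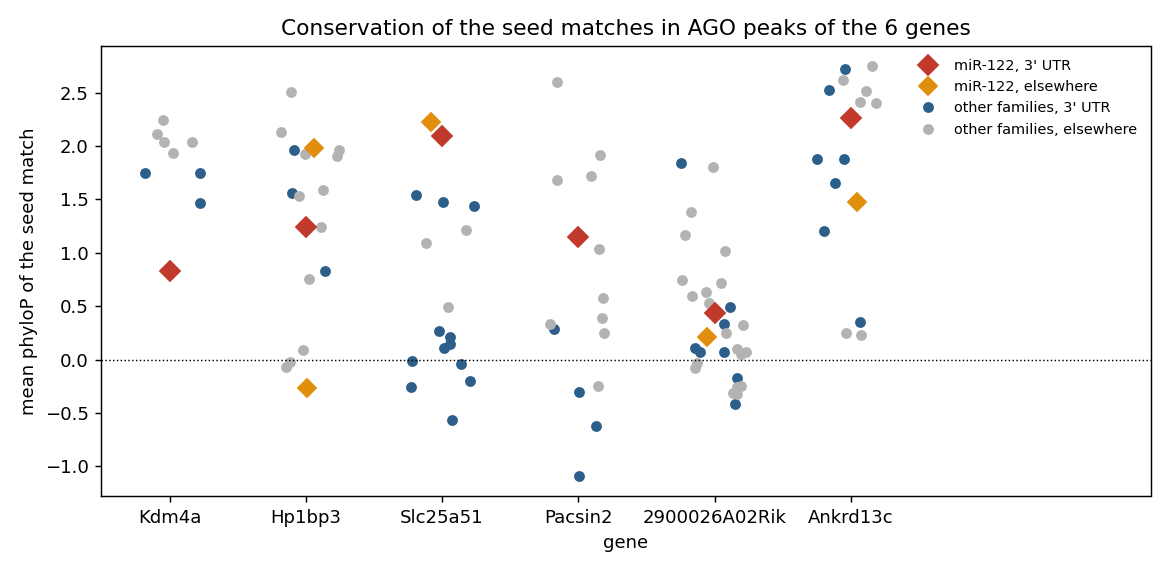
Mean phyloP of each seed match in the peaks of the 6 genes. Red diamonds are the 3' UTR miR-122 matches (0.43 to 2.26), orange diamonds other miR-122 matches, blue points matches of other families in the 3' UTR and grey points those elsewhere; the red diamond tops the blue points in Slc25a51 and Pacsin2 and lies under them in Kdm4a.

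Sex was the 1 contrast of these libraries that did not enter the choice. Over the 17182 regions, 108 (0.629%) passed in the edgeR quasi-likelihood test of male over female with genotype as a term. None of the 19 tested peaks of the 6 genes did. For the 6 miR-122 peaks the log2 values lay between -0.57 and 0.32, with adjusted p between 0.605 and 0.988 in edgeR. The lowest adjusted p of the 19 was 0.0550 (edgeR), for the 5' UTR peak of Pacsin2, at a log2 value of -1.65. Males had 5.8, 5.6 and 0 CPM in KO and 22.2 and 17.5 CPM in controls there, and females 11.9 CPM in KO and 66.2, 78.5 and 69.5 CPM in controls, so each male lay below every female of its genotype. The call was sensitive to the analysis: this peak passed with DESeq2 (adjusted p = 0.00287), with library totals only (adjusted p = 0.0448 in edgeR), with no filter on low counts (adjusted p = 0.0262 in edgeR) and without KO replicate 4 (adjusted p = 0.0109 in edgeR), and did not pass under the other alternatives run.

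The other genes of the same families and pathways were followed by their sums over peaks without a miR-122 match, from the fit over all 8160 sums. Among the PACSIN family and its endocytic and caveolar partners, 5 of 7 tested rose and none fell, with a median log2 fold change of 1.47; without KO replicate 1, 4 of the 7 rose. Over all 8160 sums 18.3% were called higher and 13.2% lower. Pacsin1 and Dnm1 had few or no control reads and passed the filter on low counts only because KO was high. These genes could therefore only be called higher. The list was also chosen with earlier results of these data known, so nothing is read from its count. Pacsin1, the paralogue known from neurons, averaged 84.4 ± 64.5 CPM in KO over all its peaks and had no read in any control. Against a floor of 3 counts over the controls, the KO level was at least 118-fold higher, and at least 73.2-fold higher without KO replicate 4, which held 181 CPM. Dnm1 and Dnm3, dynamins that pinch off endocytic vesicles and are enriched in neurons, rose at log2 fold changes of 6.15 (SE 0.85, adjusted p = 0.000291 in edgeR) and 3.77 (SE 0.59, adjusted p = 0.000647). Dnm1 had 88.6 ± 73.1 CPM in KO and 0.901 ± 0.960 CPM in controls, and Dnm3 had 210 ± 164 CPM in KO and 10.9 ± 3.75 CPM in controls. KO replicate 4 was the highest in both. Without it the KO level was 52.3 ± 9.75 CPM for Dnm1 and 129 ± 29.8 CPM for Dnm3 (SD, n = 3), and both were still called higher, at log2 fold changes of 5.45 and 3.09. Wasl (N-WASP), an activator of actin branching, rose at 1.47 (SE 0.32), and Ehd1, a membrane-remodelling ATPase, at 0.91 (SE 0.19). Over all their peaks, Wasl was called higher at 1.58, and Ehd1 did not pass at 0.36. The neuron marker sum was also higher in KO, 2058 to 8062 CPM in KO and 83.0 to 120 CPM in controls. KO replicate 4, the highest in that sum, was also the highest in Pacsin1, Dnm1, Dnm3 and Wasl. For Ehd1 it held 86.5 CPM, against a mean of 105 CPM in the other KO libraries. The part of the neuron signal in these values was not tested.

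Of 15 tested mitochondrial carriers and NAD genes, the company of Slc25a51, 6 fell and none rose, with a median of -0.57, against 13.2% lower and 18.3% higher over all 8160 sums. This list too was chosen with earlier results of these data known, so nothing is read from its count. Slc25a47, a carrier enriched in liver, had 62.9 ± 32.6 CPM in KO and 258 ± 92.7 CPM in controls (log2 fold change -2.14, SE 0.34, adjusted p = 0.000636 in edgeR). Sirt3, the mitochondrial NAD-dependent deacetylase, had 38.3 ± 6.09 CPM in KO and 92.2 ± 21.4 CPM in controls (-1.57, SE 0.23, adjusted p = 0.000468). Slc25a20, the carnitine-acylcarnitine carrier, fell at -1.35 (SE 0.33), Slc25a1, the citrate carrier, at -0.86 (SE 0.27), Slc25a42, a coenzyme A carrier, at -0.78 (SE 0.23), and Slc25a13, an aspartate-glutamate carrier, at -0.57 (SE 0.20). Without KO replicate 1 only 2 of the 15 passed as lower, and 3 did without control replicate 4 or with library totals only or TMM factors from all peaks. With library totals only, Nampt passed as higher. In the fit of sums over all peaks, Slc25a1 (-0.62), Slc25a42 (-0.53) and Slc25a13 (-0.36) did not pass. Slc25a1 and Slc25a42 had the same counts in both fits, so their calls depended on the fit and its scaling. Slc25a47, Sirt3 and Slc25a20 passed as lower in both fits. In the sums without a match, the groups overlapped in CPM for Slc25a20, Slc25a42 and Slc25a13. The hepatocyte marker sum was also lower in KO (12882 to 20600 CPM, against 24529 to 31748 CPM in controls), and its part was not tested.

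In the heterochromatin and H3K9 methylation list, chosen beside Kdm4a and Hp1bp3, 1 of 4 tested rose and none fell. The shares over all 8160 sums were 18.3% higher and 13.2% lower. As with the other lists, earlier results were known when it was chosen, and nothing is read from its count. The gene that rose was Cbx5, which encodes HP1 alpha, with 184 ± 33.5 CPM in KO and 72.2 ± 11.9 CPM in controls (log2 fold change 1.03, SE 0.18, adjusted p = 0.00115 in edgeR). Over all its peaks, Cbx5 had 191 ± 31.6 CPM in KO and 131 ± 25.2 CPM in controls, with overlap. That sum did not pass, at a log2 fold change of 0.42. Cbx5 was also the only gene of these lists with a tested 3' UTR peak that holds a 7mer or 8mer for miR-122, an 8mer whose counts were 24 in KO and 250 in controls (-3.32). Trim28, Setdb1 and Kdm4b did not pass, at 0.37, -0.17 and -0.50, and Trim28 passed as higher with library totals only. Of the 3 other Ankrd13 genes only Ankrd13a was tested, at 0.44, and it did not pass.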

How the data were processed

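The 6 genes and the gene lists were chosen with earlier results of these data known. Per the submitters' processing notes, Bowtie2 and mm10 were used; neither labels nor headers name the peak caller, the versions, the strand rule or how duplicate reads were treated. The matrix that the authors deposited holds 143524 rows, 1 per peak and match, for 92645 unique peaks, with raw read counts per library. The deposited log2 value is the authors' control over KO fold change and was not used in a test. The deposited score is the mean phyloP of a seed match. Each unique peak was used once.

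In R 4.3.3, edgeR 4.0.16 was run on the counts of all 9 libraries with filterByExpr (at least 9.94 CPM in 4 or more libraries), TMM scaling, the quasi-likelihood test, a model of genotype and sex, and Benjamini-Hochberg adjustment at 0.05 over the whole table. Regions, sums per gene over all peaks and sums over peaks without a miR-122-5p match were fitted separately. CPM are scaled by library total and log2 fold changes by TMM, so their ratios can differ. An SE was derived from the test statistic. The scripts were tested on simulated data. All 6 genes and each of their tested peaks are named; the most alike region was the tested region outside the 6 genes with the smallest difference. Alternatives were upper quartile scaling, library totals, TMM factors from other rows, DESeq2 1.42.0, no filter, a replicate block, no sex term and each replicate left out. Each mouse gave 1 library per the labels. AGO-bound reads do not separate occupancy from transcript level, and RNA-seq was not used here. Python 3.11.15, pandas 2.3.3 and matplotlib 3.10.9 made tables and plots.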

Additional observations from a re-analysis of the deposited data

Results flagged for a closer look

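Of 62 groups of 4 or 5 libraries looked at, 9 held a library far from the others by Dixon's criterion at 95%, which by chance flags about 1 in 20 groups. KO replicate 4 stood apart in 3 of them. In the intronic miR-30 peak of 2900026A02Rik (starting at 113138109) it had 66.9 CPM, against 121.8 to 130.2 CPM in the other KO libraries. In the intronic peak starting at 113138224 it had 0 CPM, against 10.7 to 12.1 CPM. In the sum of 2900026A02Rik over peaks without a miR-122 match it had 124 CPM, against 205 to 218 CPM. KO replicate 2 stood apart in 2. It had 73.1 CPM in the Slc25a51 3' UTR peak starting at 45398431, against 41.1 to 42.7 CPM in the other KO libraries. It had 30.2 CPM in the Hp1bp3 coding peak starting at 138239523, against 13.1 to 15.9 CPM.

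Among controls, replicate 2, the library with the fewest reads, stood apart in 3 groups. It had 0 CPM in the 2900026A02Rik coding peak starting at 113095717, against 11.96 to 14.95 CPM in the other controls. It had 17.9 CPM in the intronic peak starting at 113138224, against 0 to 4.03 CPM. It had 26.9 CPM in the Hp1bp3 3' UTR peak starting at 138242910, against 8.46 to 12.1 CPM. In control replicate 1 the miR-122 peak held 58.4% of the Hp1bp3 counts, against 64.6 to 66.8% in the other controls.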

How the results depend on the processing

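The 6 miR-122 3' UTR peaks and both tested coding miR-122 peaks kept their direction under every alternative run, with log2 fold changes of -6.69 to -5.85 in Slc25a51 and -5.33 to -4.16 in Ankrd13c at the extremes of the 3' UTR peaks. Without a filter, 10470 regions were lower and 11273 higher. Replicate numbers are shared by KO and control labels, but same-numbered libraries did not deviate together (correlations of -0.076 to 0.0069), so the numbers were not taken as pairs. The replicate block left 1622 regions higher, 547 gene sums without a miR-122 match lower and 956 higher, and 6 regions by sex. By sex, 168 regions passed with DESeq2 and 269 without a filter. Leaving out 1 library gave 3265 to 5865 lower and 1940 to 3834 higher regions, 747 to 1415 lower and 967 to 1534 higher gene sums, and 24 to 226 regions by sex; the fewest higher regions came without control replicate 4, the fewest higher sums without control replicate 5 and the most regions by sex without KO replicate 4. Library totals gave 590 lower and 2507 higher sums, and TMM factors from all peaks 715 and 2330.

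Within the 3' UTR only, the site's share was 76.6% in KO and 94.7% in controls for Kdm4a, 6.55% in KO and 82.9% in controls for Hp1bp3, 28.8% in KO and 93.5% in controls for Pacsin2, 19.9% in KO and 90.4% in controls for 2900026A02Rik, 16.4% in KO and 75.7% in controls for Ankrd13c, and 58.9% in Slc25a51 controls, by construction of a smaller denominator. Leaving out 1 library moved no share by more than its SD. Values that changed sign were near 0 or not called, and the cause was not tested. The 2900026A02Rik 3' UTR peak starting at 113086312 was at -0.18 with TMM factors from rows without a match, -0.080 without a filter, -0.43 with the block, -0.11 without the sex term, -0.092 without control replicate 3, -0.24 without control replicate 4 and -0.065 without KO replicate 3 (range -0.24 to 0.39 over left-out libraries). The Hp1bp3 peak starting at 138241753 was at 0.0029 with upper quartile scaling, 0.17 without the sex term and 0.30 without KO replicate 1 (range -0.59 to 0.30). The Hp1bp3 peak starting at 138237213 was at -1.42 with the block and -0.042 without control replicate 4 (range -0.042 to 3.12). With the block, the sums without a match were at -0.19 in Hp1bp3 and -0.11 in 2900026A02Rik. The block also ended the calls of the 2900026A02Rik coding peak (-3.41), its intronic miR-30 peak (0.65), the Hp1bp3 coding peak starting at 138239523 (1.19) and the sums of Kdm4a (-0.70) and Pacsin2 (-0.65). The sum of Kdm4a lost its call too when only peaks with a 7mer or 8mer match were left out (-0.98). KO levels of the site peaks rest on 10 to 43 reads per gene.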
